A study of Mus musculus with 8 samples.

Results

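The 10 genes described here encode the machinery with which the proximal tubule takes back filtered protein: Lrp2, Cubn, Amn, Folr1, Fcgrt, Lrpap1, Dab2, Clcn5, Ocrl and Ehd1. They are 10 of the 25240 gene symbols in the deposited count table, and all 10 were found there and passed the filter on low counts. The list names genes of receptor-mediated protein uptake and was selected on the measured difference between Tomato-positive and Tomato-negative libraries, within each prefix of the sample titles and by pair. That difference is therefore given for the 10 genes as values with no p, and counts of them past a threshold on it are printed only beside the share of all genes, with nothing read from them. Tests are given for a contrast that the rule of choice did not use, between the prefixes of the titles, and for other genes of the same pathway.

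RNA was sequenced in 8 libraries of mouse kidney cells, 4 Tomato-positive and 4 Tomato-negative. All 8 share the genotype (p16-tdTomato) and the adenine-rich diet that was fed to bring on chronic kidney disease (CKD), and no library of healthy kidney was compared. The genotype joins the name of p16, a cell cycle inhibitor encoded by Cdkn2a and used as a marker of senescent cells, with that of a red fluorescent protein. The sources used here do not state the construction of the reporter, the method of cell separation or the age and sex of the mice. Per the labels, each library holds proximal tubular epithelial cells. Each of the title identifiers CKD523_2, CKD523_3, CKD627_1 and CKD627_2 is carried by 1 Tomato-positive and 1 Tomato-negative library, which are called a pair here. No label explains the prefixes CKD523 and CKD627 or says that identifiers stand for separate animals, so a p-value here reflects only the spread among these libraries.

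In the proximal tubule, megalin (the product of Lrp2) and cubilin (Cubn) sit in the apical membrane and bind albumin, vitamin carriers, hormones and enzymes that have passed the glomerular filter. The receptors gather in clathrin-coated pits, are taken into endosomes that become acid, release their cargo there and return to the surface, while most of the cargo goes on to lysosomes. Loss of CLCN5 causes Dent disease and loss of OCRL causes Lowe syndrome in humans, both with low molecular weight proteinuria, and loss of cubilin or amnionless causes Imerslund-Gräsbeck syndrome.

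Promoter windows from RefSeq (build GRCm38.p6, from 250 bases before to 50 bases after an annotated start) were matched by symbol for 8 of the 10 genes, all except Folr1 and Ehd1. The windows of Lrp2 and Cubn, the receptor genes with the widest spread of levels over the libraries, are shown beside that of Ocrl, the gene of the list whose levels were least like theirs. They lie at chr2:69585980-69586279 on the minus strand (Lrp2), chr2:13491827-13492126 on the minus strand (Cubn) and chrX:47912206-47912505 on the plus strand (Ocrl). Each is written 5′ to 3′ along its gene, with matches to the motifs searched in capitals.
Lrp2: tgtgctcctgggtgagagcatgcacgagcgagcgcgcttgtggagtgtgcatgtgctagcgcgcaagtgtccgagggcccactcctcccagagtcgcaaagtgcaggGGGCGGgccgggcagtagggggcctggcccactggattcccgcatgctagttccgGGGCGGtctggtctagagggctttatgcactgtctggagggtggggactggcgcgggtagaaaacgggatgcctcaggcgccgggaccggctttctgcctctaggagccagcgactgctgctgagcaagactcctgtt
Cubn: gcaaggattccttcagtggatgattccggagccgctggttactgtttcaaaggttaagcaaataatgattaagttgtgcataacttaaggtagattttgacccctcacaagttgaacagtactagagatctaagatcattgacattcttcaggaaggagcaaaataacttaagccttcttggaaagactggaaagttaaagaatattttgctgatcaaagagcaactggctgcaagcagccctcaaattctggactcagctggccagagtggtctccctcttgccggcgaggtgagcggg
Ocrl: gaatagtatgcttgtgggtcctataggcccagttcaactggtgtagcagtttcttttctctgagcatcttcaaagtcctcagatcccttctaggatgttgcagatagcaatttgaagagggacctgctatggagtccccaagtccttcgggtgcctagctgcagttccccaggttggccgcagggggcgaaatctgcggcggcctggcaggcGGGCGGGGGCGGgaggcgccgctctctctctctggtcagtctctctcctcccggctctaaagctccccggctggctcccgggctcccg
The motifs were searched on both strands, and their shares are of 32851 RefSeq windows of the same length. GGGCGG, a GC box, is held by 35.7% of windows. The E-box CACGTG, bound by the TFE family, is held by 7.15%. A part of the HNF1 site, GTTAAT, is held by 7.1% and the HNF4 site CAAAGTCCA by 0.475%. TATAAA, the TATA box, is held by 13.6%. The Lrp2 window has 65% G and C, 20 CpG dinucleotides and GC boxes beginning 143 and 88 bases before the start. Cubn lies on the same chromosome, and its window has 44.3% G and C, 5 CpG and none of the 5 motifs. The Ocrl window has 60% G and C, 14 CpG and adjacent GC boxes beginning 38 and 32 bases before the start. The median window has 52.7% G and C and 7 CpG. Among the other windows, that of Amn holds a CACGTG beginning 26 bases before the start. These letters are a description of the windows, and whether a factor binds there was not measured.

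Total counts per library ranged from 13474439 to 19886202, and 1 CPM (counts scaled to the library total, on the TMM scale of edgeR) stood for between 13 and 20.6 counts. The reporter transcript tdTomato had 3705 ± 461 CPM in Tomato-positive and 111 ± 29.4 CPM in Tomato-negative libraries (SD, n = 4 each; edgeR adjusted p = 7.08e-05). Cdkn2a lay at 1.17 ± 1.11 CPM in Tomato-positive and 1.06 ± 0.949 CPM in Tomato-negative libraries (SD, n = 4 each; edgeR adjusted p = 0.949). Against the label of a single cell type, markers of other kidney cells were present. Of the marker lists, 5 macrophage markers (Adgre1, C1qa, C1qb, C1qc and Cx3cr1), Pvalb of the distal convoluted tubule and Lum of fibroblasts were at 0 counts in at least 1 library, and no other marker was. The 24 proximal tubule markers summed to between 5485 and 15120 CPM in Tomato-positive and between 5664 and 27006 CPM in Tomato-negative libraries. The 7 markers of the thick ascending limb summed to between 1837 and 6855 CPM and between 4182 and 14269 CPM in the same groups, and the 8 principal cell markers to between 1055 and 5382 CPM and between 230.9 and 2346 CPM. In bulk RNA, fewer cells of a type and less RNA per cell cannot be told apart, which holds for every level below.

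To compare levels between the genes, mean CPM over the 8 libraries was divided by exon length (CPM per kb, exon union from GENCODE M21). Folr1, the folate receptor of the brush border, was highest at 123 CPM per kb, followed by Amn at 97.8 and Fcgrt at 95.7. Dab2 had 66.3, Lrpap1 64, Lrp2 44.6 and Ehd1 36.8 CPM per kb. Cubn lay lower at 12.1 CPM per kb, and Clcn5 at 5.1 and Ocrl at 3.96 CPM per kb were lowest. Among 14040 genes ranked by the same measure, Folr1 stood at the 97.7th and Ocrl at the 38.7th percentile. Neighbours in this order overlapped in range over the libraries: Folr1 spanned 58.3 to 210 and Amn 36.4 to 176 CPM per kb, and Clcn5 spanned 1.9 to 7.59 and Ocrl 2.56 to 5.1 CPM per kb. Cubn, whose product binds ligands and depends on others to enter the cell, spanned 2.78 to 25.6 CPM per kb, below the 27.8 to 52.7 CPM per kb of Ehd1.

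The receptors differed between the Tomato groups in opposite directions in the 2 prefixes. Lrp2 (chr2:69424340-69586065, minus strand) encodes megalin, the large endocytic receptor of the LDL receptor family. Its level was 838, 807, 359 and 440.3 CPM in the Tomato-positive libraries CKD523_2, CKD523_3, CKD627_1 and CKD627_2, against 1595, 1417, 198 and 299.9 CPM in the Tomato-negative libraries of the same identifiers. In prefix CKD523 the Tomato-positive libraries lay below both Tomato-negative ones, and in prefix CKD627 they lay above both. The ratio within a pair was 0.526 and 0.569 for CKD523 and 1.81 and 1.47 for CKD627. Over all libraries the log2 difference, Tomato-positive minus Tomato-negative, was -0.52 ± 0.64 (SE), and with the pairs in the model it was -0.08 ± 0.304 (SE).

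Cubn (chr2:13276338-13491813, minus strand) encodes cubilin, a peripheral receptor without a membrane span. It had 190.8, 204, 69.9 and 132 CPM in the Tomato-positive libraries in the same order, against 382, 344, 41.5 and 83.9 CPM in the Tomato-negative libraries. As for Lrp2, Tomato-positive libraries were low in prefix CKD523 and high in prefix CKD627. The log2 differences of the pairs were -1.0 and -0.76 in CKD523 and 0.75 and 0.65 in CKD627. An annotated noncoding transcript on the other strand overlaps 2.46% of its exon bases, and whether the counts used strand is not stated in the sources used here.

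Amn (chr12:111271095-111276426, plus strand) encodes amnionless, which anchors cubilin in the membrane. Its levels were 222, 198, 67.1 and 127 CPM in the Tomato-positive libraries, against 299.7, 324, 108 and 96.1 CPM in the Tomato-negative libraries. Unlike cubilin, it was lower in the Tomato-positive library in 3 of 4 pairs, and CKD627_2 was the exception. The log2 difference was -0.57 ± 0.116 (SE) within CKD523 and -0.11 ± 0.288 (SE) within CKD627. Thus the transcripts of the partners of the cubilin and amnionless complex differed in the same direction in the CKD523 pairs and in opposite directions in pair CKD627_1, where the ratio of Tomato-positive to Tomato-negative was 1.69 for Cubn and 0.62 for Amn.

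**Figure D1:**
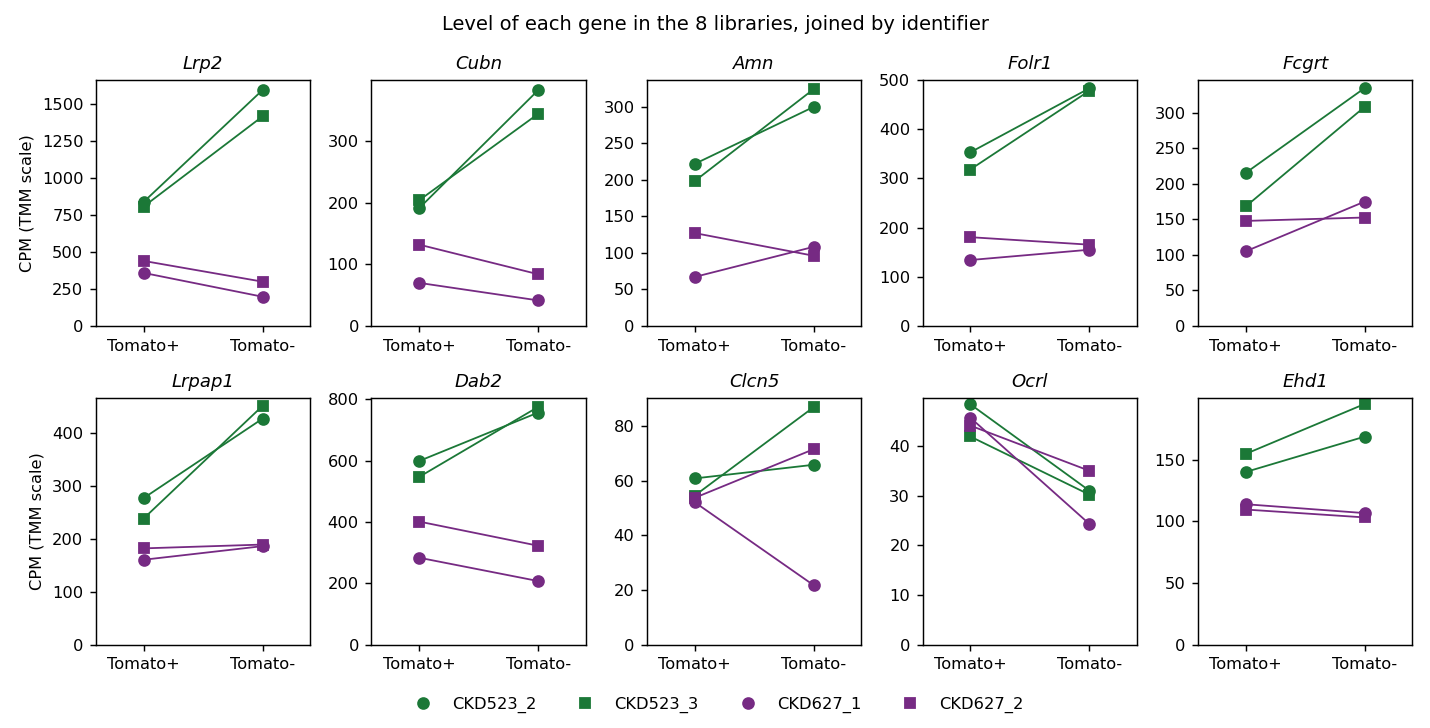
Level of each of the 10 genes in CPM on the TMM scale (vertical axes start at 0), with Tomato-positive libraries on the left and Tomato-negative on the right of each panel and lines joining libraries of the same identifier. Lines of Lrp2, Cubn, Dab2 and Ehd1 slope in opposite directions in the 2 prefixes, while those of Ocrl slope the same way in all 4 pairs.

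Among the cargo receptors, Folr1 (chr7:101858331-101870788, minus strand) had 353, 318, 134 and 180.4 CPM in the Tomato-positive libraries, against 483, 478, 155 and 165 CPM in the Tomato-negative libraries. It was lower in the Tomato-positive library in 3 of 4 pairs. Fcgrt (chr7:45092990-45103851, minus strand) encodes the heavy chain of the neonatal Fc receptor, which binds albumin and IgG in acid endosomes and spares them from breakdown. It had 216, 168, 105 and 148 CPM in the Tomato-positive libraries, against 335, 309, 175 and 153 CPM in the Tomato-negative libraries. It was lower in Tomato-positive in all 4 pairs, by as little as 0.05 on the log2 scale in CKD627_2 and as much as 0.87 in CKD523_3. The log2 difference of Fcgrt over all libraries was -0.61 ± 0.304 (SE) without and -0.57 ± 0.162 (SE) with the pairs in the model.

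Lrpap1 (chr5:35091501-35105766, minus strand) encodes RAP, the chaperone that keeps ligands off megalin and its relatives in the endoplasmic reticulum. Its levels were 276, 238, 160.1 and 182 CPM in the Tomato-positive libraries, against 427, 451, 186 and 189 CPM in the Tomato-negative libraries. It too was lower in Tomato-positive in all 4 pairs, with log2 differences of -0.77 ± 0.119 (SE) in prefix CKD523 and -0.16 ± 0.201 (SE) in prefix CKD627. In CKD627 pairs the chaperone was slightly lower in the libraries in which its client Lrp2 was higher.

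Dab2 (chr15:6299788-6440712, plus strand) encodes the adaptor that links the tail of megalin to the clathrin coat. It had 599, 547, 283 and 401 CPM in the Tomato-positive libraries, against 757, 776, 207 and 323 CPM in the Tomato-negative libraries. Like the receptors Lrp2 and Cubn, it was lower in Tomato-positive in both CKD523 pairs and higher in both CKD627 pairs, with smaller differences (-0.42 ± 0.108 and 0.34 ± 0.252 on the log2 scale, SE). A pseudogene on the other strand overlaps 2.87% of its exon bases.

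The genes of the endosome did not share a direction. Clcn5 (chrX:7153810-7319358, minus strand) encodes the chloride-proton exchanger ClC-5, which helps endosomes to become acid. It spanned 52.1 to 60.8 CPM over the Tomato-positive libraries (60.8, 54.5, 52.1 and 53.7), against 65.8, 86.9, 21.7 and 71.5 CPM in the Tomato-negative libraries. The Tomato-negative libraries thus spread more widely than the Tomato-positive ones, and the groups overlapped; the Tomato-negative library CKD627_1 was the lowest of all 8. Ehd1 (chr19:6276725-6300096, plus strand) encodes an ATPase of the recycling endosome. It had 140, 155, 114 and 109.5 CPM in the Tomato-positive libraries, against 169, 195, 107 and 103 CPM in the Tomato-negative libraries, and its log2 difference was -0.30 ± 0.125 (SE) in CKD523 and 0.06 ± 0.207 (SE) in CKD627.

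Ocrl (chrX:47912387-47965868, plus strand) encodes an inositol 5-phosphatase that acts on PI(4,5)P2 on coated pits and early endosomes. Its level was 48.4, 41.9, 45.7 and 44.1 CPM in the Tomato-positive libraries, against 31, 30.2, 24.3 and 35 CPM in the Tomato-negative libraries. These values rest on 629 to 908 counts in Tomato-positive and 410 to 550 counts in Tomato-negative libraries. Every Tomato-positive library lay above every Tomato-negative library, which held for no other of the 10 genes. How many of all genes were separated in this way was not counted, so nothing is read from it. The looser condition of being higher in all 4 pairs held for 17.9% of all genes. The means were 45 ± 2.71 CPM in Tomato-positive and 30.1 ± 4.4 CPM in Tomato-negative libraries (SD, n = 4 each), a 1.49-fold difference of the fit. The log2 difference was 0.56 ± 0.152 (SE) within CKD523 and 0.57 ± 0.259 (SE) within CKD627.

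**Figure D2:**
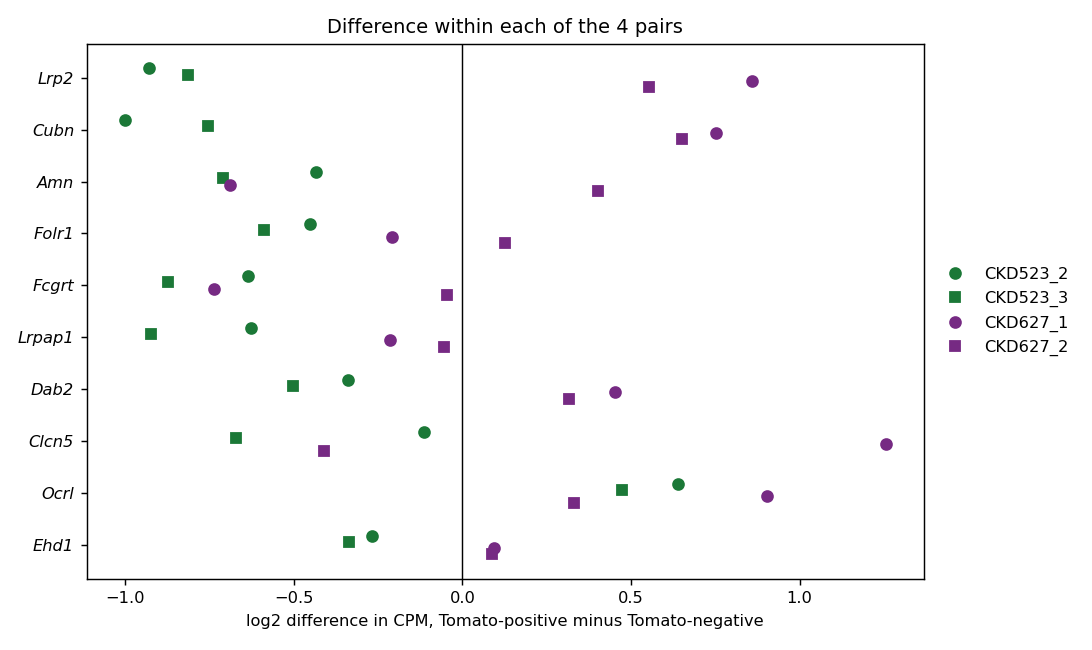
Log2 difference in CPM within each pair, Tomato-positive minus Tomato-negative, for the 10 genes (1 point per pair; green CKD523, purple CKD627). Points of Ocrl lie right of 0 in all 4 pairs, points of Fcgrt and Lrpap1 lie left of 0 in all 4, and Lrp2 spans -0.93 to 0.86.

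Counts of these directions stand beside those of all genes tested. In the fit without pairs, 0 of the 10 genes were called at an adjusted p under 0.05, beside 85 of all 14284 genes tested (0.595%); DESeq2 called 1 of the 10. In the fit with pairs 0 of the 10 were called again, beside 1089 of all genes (7.62%). Within prefix CKD523 alone 7 of the 10 were called lower in Tomato-positive, beside 8.38% of all genes, a count that the choice of the list fixed in part. Within prefix CKD627 alone 0 of the 10 were called in either direction, beside 2.07% of all genes. By direction alone, 2 of the 10 and 17.6% of all genes were lower in all 4 pairs, and 1 of the 10 and 17.9% of all genes were higher in all 4 pairs. Another 4 of the 10 (Lrp2, Cubn, Dab2 and Ehd1) and 7.25% of all genes were lower in both CKD523 pairs but higher in both CKD627 pairs. When the difference between the prefixes in the Tomato contrast was fitted, 0 of the 10 were called without pairs, beside 0.0198% of 15138 genes. With pairs 2 of the 10 were called, beside 0.165% of those genes. Since these contrasts chose the list, nothing is read from the counts. The median log2 difference of the 10 genes was -0.41 without pairs, beside 0.01 over all genes tested, but -0.10 with pairs and -0.11 with the prefix as a covariate. Without 1 library it ranged from -0.635 to -0.095 without pairs, and without 1 pair from -0.34 to 0.031 with pairs.

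Levels of 24 other proximal tubule markers also differed between the libraries. The 24 markers summed to 15120, 14532, 5485 and 7935 CPM in the Tomato-positive libraries (CKD523_2, CKD523_3, CKD627_1, CKD627_2), against 25637, 27006, 5664 and 7340 CPM in the Tomato-negative libraries. The 10 genes together amounted to 19.5, 18.8, 25.4 and 22.9% of that sum in the Tomato-positive libraries, against 17.7, 16.3, 21.6 and 20.7% in the Tomato-negative libraries. Relative to the markers, the uptake genes as a sum were thus higher in the Tomato-positive library of all 4 pairs, although their sum in CPM was lower in both CKD523 pairs. The marker sum was itself lower in the Tomato-positive library of every pair but CKD627_2, and 8 of the 24 markers fell in edgeR with pairs. Where the marker sum is lower, a gene with the same CPM in both libraries is also higher on this scale. Per 1000 CPM of the markers, Lrp2 had 55.4, 55.5, 65.5 and 55.5 CPM in Tomato-positive libraries, against 62.2, 52.5, 35 and 40.9 CPM in Tomato-negative libraries. On that scale the 4 Tomato-positive libraries lay close together, and the Tomato-negative libraries of CKD627 were lowest. Dab2 and Ocrl were higher in Tomato-positive in 4 of 4 pairs on that scale, Lrpap1 in 1 of 4. The share of all genes on that scale was not computed, and since the contrast chose the list, nothing is read from these directions. The part of the number of proximal tubule cells in the levels of these genes was not tested.

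**Figure D3:**
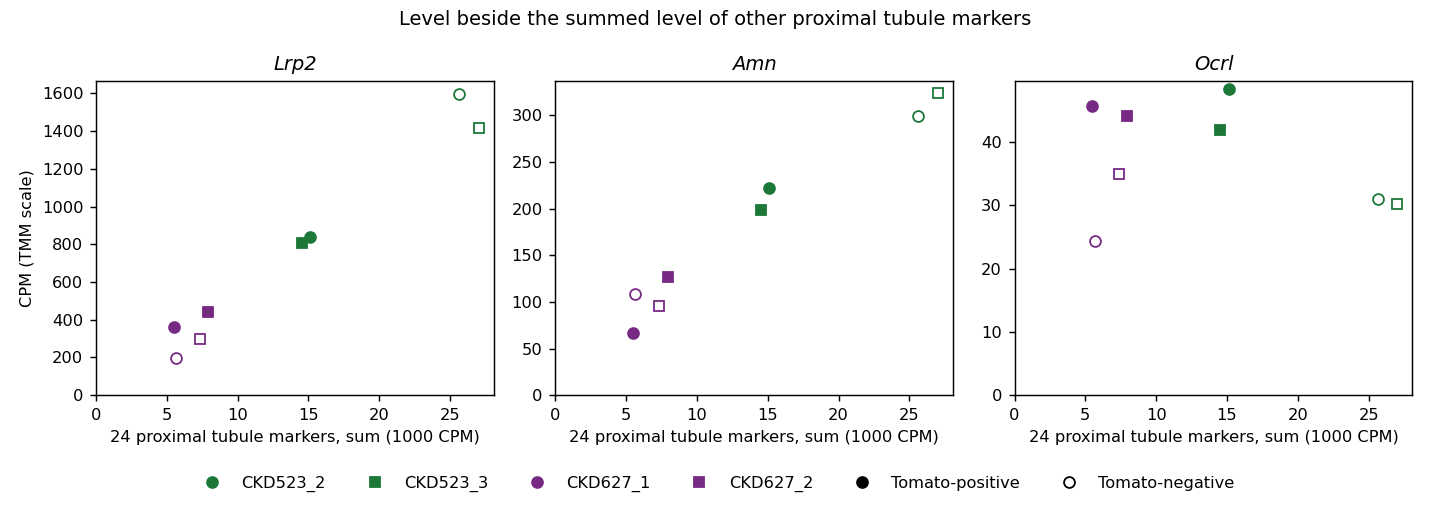
Level in CPM of Lrp2, Amn and Ocrl (vertical axes) against the summed level of 24 other proximal tubule markers in 1000 CPM (horizontal axes), 1 point per library, filled for Tomato-positive and open for Tomato-negative. Lrp2 and Amn are high where the marker sum is high, whereas the 4 Tomato-positive points of Ocrl (41.9 to 48.4 CPM) lie above the 4 Tomato-negative points at every marker sum.

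The rule that chose the 10 genes did not use the contrast between the prefixes. The list was still made with earlier results of these data known. The contrast was tested on counts summed over the 2 libraries of each identifier, 2 sums against 2. Of the 10 genes, 8 fell in CKD627 relative to CKD523 at an adjusted p under 0.05, where 12.6% of 15398 genes fell, and 0 rose, where 9.15% did. In the same test 23 of 24 proximal tubule markers fell, so the fall is not particular to these genes. For Lrp2 the summed libraries had 275 and 370.6 CPM in CKD627, against 1240 and 1109 CPM in CKD523, a log2 difference of -1.86 ± 0.164 (SE; edgeR adjusted p = 4.9e-05). Cubn had 55 and 108.5 CPM in CKD627, against 292 and 273 CPM in CKD523 (-1.79 ± 0.254, SE; edgeR adjusted p = 0.000598). Both receptors stood in CKD627 at less than 0.3 of their level in CKD523, with fold values of 0.275 and 0.29.

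Amn and Folr1 fell by less, by 1.41 ± 0.148 and 1.39 ± 0.14 on the log2 scale (SE; edgeR adjusted p = 0.000115 and 8.96e-05). Dab2 fell by 1.17 ± 0.178 (SE; edgeR adjusted p = 0.00089), Lrpap1 by 0.99 ± 0.128 (SE; edgeR adjusted p = 0.000357) and Fcgrt by 0.85 ± 0.137 (SE; edgeR adjusted p = 0.00125). Ehd1 fell by 0.64 ± 0.13 (SE, edgeR adjusted p = 0.00508), and without identifier CKD523_3 its log2 difference was -0.56. Lrp2 and Cubn had the largest of these 8 values and the recycling ATPase Ehd1 the smallest; differences between these sizes were not tested.

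The 2 genes of human proteinuria syndromes with X linkage did not pass. Clcn5 had 36.3 and 60 CPM in CKD627, against 64.4 and 70.7 CPM in CKD523 (-0.49 ± 0.208, SE; edgeR adjusted p = 0.13), but this value rested on single identifiers. It was -0.89 without CKD627_2 and -0.13 without CKD627_1, fits that leave 1 identifier on 1 side, so no p is given for them. In Tomato-positive libraries alone it was -0.13 (edgeR adjusted p = 0.67). Clcn5 was called when every gene with at least 1 count was kept (edgeR adjusted p = 0.0287). Ocrl had 34.5 and 39.2 CPM in CKD627, against 40.3 and 36.8 CPM in CKD523 (-0.06 ± 0.149, SE; edgeR adjusted p = 0.821). Every CKD627 library lay below every CKD523 library for 7 of the 10 genes (all but Fcgrt, Clcn5 and Ocrl), against 10.4% of all genes. The median log2 difference of the 10 genes was -1.08, beside -0.00036 over all genes tested.

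Within the Tomato-positive libraries the prefix difference of Lrp2 was -1.05 ± 0.124, and within the Tomato-negative libraries it was -2.65 ± 0.247 (log2, SE). For Cubn the values were -0.97 ± 0.244 in Tomato-positive and -2.59 ± 0.307 in Tomato-negative libraries. Within Tomato-positive libraries the largest values were those of Amn (-1.115 ± 0.248) and Folr1 (-1.098 ± 0.155), not those of the receptors Lrp2 and Cubn (log2, SE). Within Tomato-positive libraries alone 6 of the 10 genes passed, beside 1890 of all genes in either direction (3351 for the sums per identifier). The share of all genes that fell in that fit was not computed, so nothing is read from the count of 6. In addition to Clcn5 and Ocrl, Fcgrt (edgeR adjusted p = 0.062) and Ehd1 (edgeR adjusted p = 0.0619) did not pass there.

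**Figure D4:**
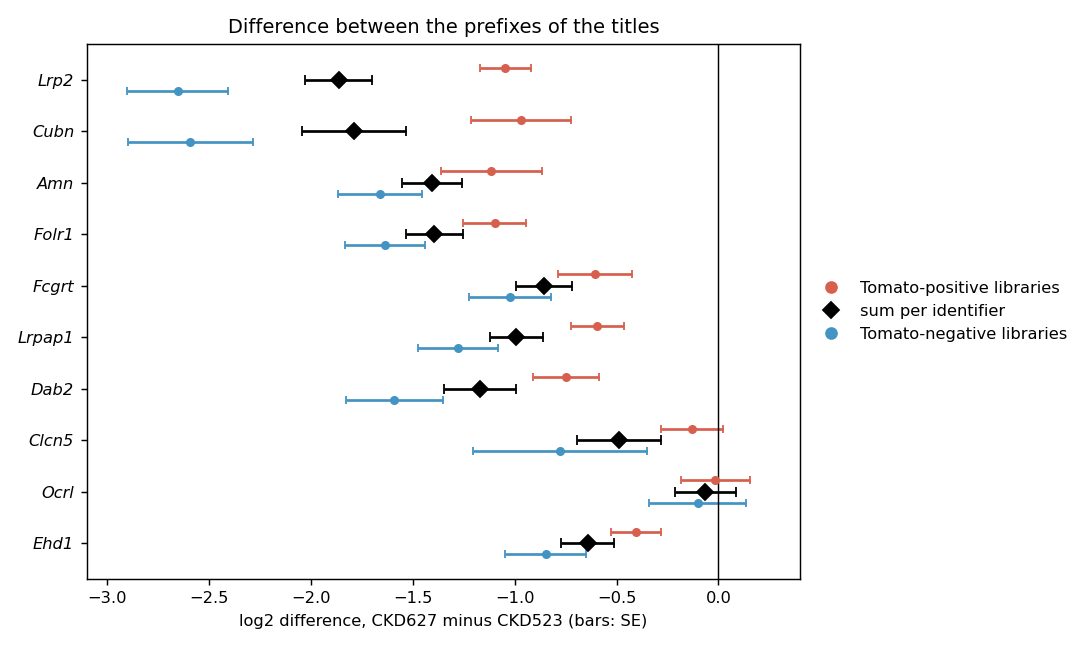
Log2 difference between the prefixes, CKD627 minus CKD523, for the 10 genes: black diamonds for counts summed per identifier, red points for Tomato-positive and blue points for Tomato-negative libraries alone, bars SE. The diamonds and blue points of Lrp2 and Cubn lie farthest left of 0, among the red points those of Amn and Folr1 do, and the bars of Ocrl span 0.

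The prefixes differed across the nephron in the same test. Of 24 proximal tubule markers 23 fell in CKD627, with a median log2 difference of -1.72, and Slc34a1, the phosphate transporter NaPi-IIa, fell by 2.01 (edgeR adjusted p = 7.98e-05). Markers of endothelium (8 of 8), principal cells (7 of 8), thick ascending limb (6 of 7, with 1 that fell), intercalated cells (5 of 7) and distal convoluted tubule (3 of 6) rose. Of macrophage markers 2 of 7 rose and 2 fell, and 1 of 6 podocyte markers and 1 of 6 fibroblast and pericyte markers rose. The endothelial sum was 382 to 708 CPM in CKD627 and 53.7 to 238 CPM in CKD523 libraries, and the principal cell sum 1663 to 5382 CPM and 230.9 to 2006 CPM in the same order. The part of cell composition in the fall of the uptake genes was not tested.

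The 10 profiles were compared with each other and with 11315 genes of at least 5 CPM by the root mean square distance of centred log2 CPM over the 8 libraries, as a description. Lrp2 and Cubn lay 0.191 apart, and Cubn was the 13th nearest of all genes to Lrp2. Closer still were Amn and Folr1 (0.151) and Fcgrt and Lrpap1 (0.156). Farthest apart were Cubn and Ocrl (1.07), and Ocrl ranked 5267th from Lrp2. The median distance of all genes to Lrp2 was 1.05.

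The named genes nearest to Lrp2 were Elovl2 (0.121), Pyroxd2 (0.122), BC024386 (0.142), Hnf4a (0.147) and Hsd3b2 (0.148), and those nearest to Cubn were Kcnj15 (0.116), Nlrp6 (0.121) and Slc3a1 (0.152). Hnf4a, a nuclear receptor that drives genes of the proximal tubule, had 321 ± 134 CPM in Tomato-positive and 432 ± 339 CPM in Tomato-negative libraries (SD, n = 4 each). Its log2 difference was -0.73 within CKD523 and 0.53 within CKD627, beside -0.87 and 0.66 for Lrp2. Slc3a1 encodes a subunit of the cystine transporter of the brush border and had -0.80 in CKD523 and 0.41 in CKD627.

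Of 161 other genes of the endocytic pathway in 8 lists, 158 were tested between the Tomato groups. Without pairs 1 rose and 0 fell in edgeR (8 and 6 in DESeq2), with pairs 9 rose and 5 fell in edgeR. Over all genes 0.364% rose and 0.231% fell without pairs, and 3.82% rose and 3.81% fell with pairs, and the counts of these lists stand against those shares. The median log2 difference of the 158 genes was -0.03 beside 0.01 over all genes. The riser without pairs was Ehd4, a relative of Ehd1 in endosome recycling. It had 187.5 ± 22 CPM in Tomato-positive and 97.6 ± 13.3 CPM in Tomato-negative libraries (SD, n = 4 each), a log2 difference of 0.94 ± 0.146 (SE; edgeR adjusted p = 0.0407) and was higher in 4 of 4 pairs. Leaving out any 1 library ended this call, with adjusted p between 0.0514 and 0.163, within CKD627 alone it was 0.126, and with pairs it was 0.0126 (0.0833 without pair CKD523_3).

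At the plasma membrane, 2 of 24 genes of the clathrin coat and its adaptors rose with pairs and 0 fell. Hip1, which links clathrin coats to actin, had 63.1 ± 22.2 CPM in Tomato-positive and 25.4 ± 15.3 CPM in Tomato-negative libraries (SD, n = 4 each; with pairs log2 1.41 ± 0.283, SE, edgeR adjusted p = 0.0219, without pairs 0.157). Cd2ap, an adaptor between receptors and actin, had 402.5 ± 33.7 CPM in Tomato-positive and 264 ± 24.4 CPM in Tomato-negative libraries (edgeR adjusted p = 0.0321 with pairs and 0.0691 without). Without pair CKD523_3 the call of Hip1 was lost (adjusted p = 0.102), and that of Cd2ap when any pair other than CKD627_1 was left out (0.0943 to 0.132). None of the 19 genes of the early endosome passed in either fit, 0 of them had an unadjusted p under 0.05 in edgeR without pairs, and DESeq2 and limma-voom called 0. Rabs, tethers and sorting proteins of that compartment thus gave no call, with Appl1, the adaptor of the earliest endosomes, at a log2 difference of 0.31 ± 0.15 (SE; edgeR adjusted p = 0.318).

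In recycling, 3 of 27 genes rose with pairs and 0 fell. Beside Ehd4 these were Rab11fip1, an effector of Rab11, and Ehd2, which sits at caveolae; both were picked out after their values were seen. Rab11fip1 had 204 ± 100.2 CPM in Tomato-positive and 89.5 ± 45.1 CPM in Tomato-negative libraries (SD, n = 4 each; with pairs log2 1.22 ± 0.146, SE, edgeR adjusted p = 0.00302, without pairs 0.224). Ehd2 rose with pairs by 0.66 ± 0.157 (log2, SE; edgeR adjusted p = 0.0394, without pairs 0.358). It is abundant in endothelium, whose 8 markers summed to 53.7 to 708 CPM in Tomato-positive and 133 to 612 CPM in Tomato-negative libraries, and the part of endothelial cells in its rise was not tested. The call of Rab11fip1 held without each of the 4 pairs (adjusted p up to 0.0261), and that of Ehd2 was lost without CKD523_3 or CKD627_2 (0.158 and 0.164).

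Among inositol lipid enzymes and partners of OCRL, 1 of 13 genes tested rose with pairs. Pik3c2a, the class II PI3-kinase of coated pits and endosomes, had 165.5 ± 14.1 CPM in Tomato-positive and 99.4 ± 23.8 CPM in Tomato-negative libraries (SD, n = 4 each; with pairs log2 0.77 ± 0.165, SE, edgeR adjusted p = 0.0281, without pairs 0.0964). Its call was lost without pair CKD523_3 or CKD627_2 (adjusted p = 0.101 and 0.131).

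Of 21 genes for endosomal exchangers and the proton pump, 3 fell with pairs and 0 rose: the pump subunits Atp6v1e1, Atp6v1d and Atp6v1h, the last picked out after its value was seen. Atp6v1e1 had 192 ± 18.1 CPM in Tomato-positive and 324 ± 63.5 CPM in Tomato-negative libraries (SD, n = 4 each; with pairs log2 -0.74 ± 0.131, SE, edgeR adjusted p = 0.0144, without pairs 0.075). The edgeR adjusted p of Atp6v1d was 0.0316 with and 0.101 without pairs, and that of Atp6v1h was 0.0407 with and 0.142 without. Without pair CKD523_3 or CKD627_2 all 3 calls were lost (adjusted p between 0.0738 and 0.153), Atp6v1d also without CKD523_2 (0.0686) and Atp6v1h also without CKD627_1 (0.0512). Proton pumps also fill the membrane of intercalated cells, and 3 of 7 markers of those cells fell with pairs; their summed level was 212 to 1077 CPM in Tomato-positive and 278 to 2613 CPM in Tomato-negative libraries. The part of intercalated cells in the fall of the pump subunits was not tested.

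Of 19 tested relatives of megalin and other endocytic receptors, 2 rose and 1 fell with pairs. Lrp8, the apolipoprotein E receptor 2, had 17.2 ± 4.28 CPM in Tomato-positive and 8.02 ± 1.27 CPM in Tomato-negative libraries (SD, n = 4 each; with pairs log2 1.08 ± 0.214, SE, edgeR adjusted p = 0.021, without pairs 0.0663). Sort1, the sorting receptor sortilin, rose with pairs by 0.87 ± 0.153 (log2, SE; edgeR adjusted p = 0.0136, without pairs 0.124) and was picked out after its value was seen. The scavenger receptor Cd36 fell to 14.6 ± 7.76 CPM in Tomato-positive, against 59.5 ± 34.5 CPM in Tomato-negative libraries (SD, n = 4 each; with pairs log2 -2.03 ± 0.292, SE, edgeR adjusted p = 0.00683, without pairs 0.116). Cd36 kept its call without each of the 4 pairs (adjusted p up to 0.0383). Lrp8 lost it when any pair other than CKD627_1 was left out (0.0678 to 0.125), and Sort1 without CKD523_3 or CKD627_2 (0.0563 and 0.052).

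Downstream, among 23 tested genes for the fate of filtered ligands, 1 rose and 1 fell with pairs. Cd320, the receptor that takes up transcobalamin with its vitamin B12, had 18.8 ± 1.94 CPM in Tomato-positive and 28.5 ± 6.89 CPM in Tomato-negative libraries (SD, n = 4 each; edgeR adjusted p = 0.0961 with pairs and 0.167 without). Gc, the vitamin D binding protein and a ligand of megalin, rose with pairs by 0.60 ± 0.145 (log2, SE; edgeR adjusted p = 0.0409, without pairs 0.608) and was picked out after its value was seen. Gc lost its call when any pair other than CKD627_1 was left out (0.124 to 0.179). None of 12 regulators of proximal tubule and lysosome genes passed in either fit (edgeR; 2 had an unadjusted p under 0.05 without pairs, and DESeq2 called 0), among them Tfe3 (0.36 ± 0.124, SE; adjusted p = 0.188) and Vdr, the vitamin D receptor (-0.62 ± 0.223, SE; adjusted p = 0.204, with pairs 0.0901). Vdr was called lower by DESeq2 with pairs (adjusted p = 0.0236), and by edgeR with the prefix as a covariate (0.0413), within CKD523 alone (0.000986) and with pairs but without CKD627_1 (0.00787).

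**Figure D5:**
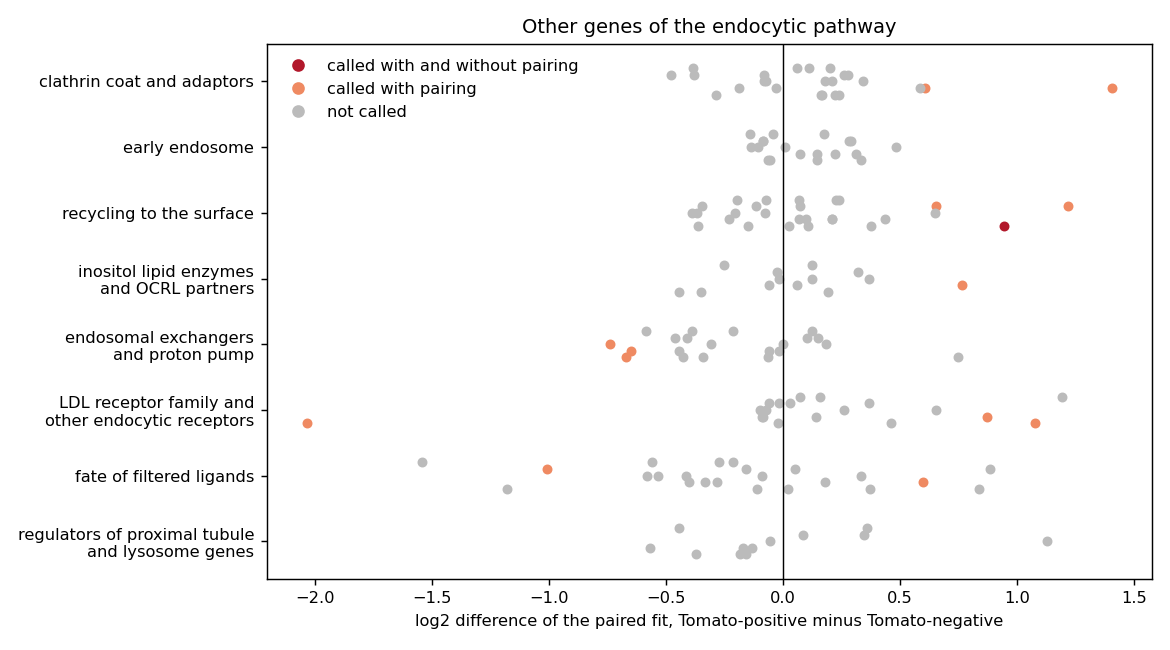
Log2 difference of the fit with pairs, Tomato-positive minus Tomato-negative, for the 158 tested genes of the 8 pathway lists (1 point per gene; dark red for the gene called with and without pairs, orange for those called with pairs alone, grey for the rest). The genes called lower include 3 proton pump subunits and Cd36, and the dark red point is Ehd4.

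Other cell types moved between the Tomato groups in the same fit with pairs. Principal cell markers rose (8 of 8, among them Aqp4 at 314 ± 57.8 CPM in Tomato-positive and 31.2 ± 9.84 CPM in Tomato-negative libraries, SD, n = 4 each). Proximal tubule markers fell in 8 of 24 genes, thick ascending limb markers in 5 of 7, distal convoluted tubule markers in 3 of 6 and podocyte markers in 1 of 6. Of macrophage markers 1 of 7 rose (Cd68, edgeR adjusted p = 0.0153 with and 0.0663 without pairs) and 0 fell. The macrophage marker Csf1r was lower in 4 of 4 pairs (with pairs log2 -1.52 ± 0.416, SE, edgeR adjusted p = 0.0617). DESeq2 with pairs called 1 macrophage marker higher and 1 lower. Of fibroblast and pericyte markers 0 of 6 passed in edgeR with pairs. For these, DESeq2 called 0 without and 2 with pairs, and 2 had an unadjusted p under 0.05 in edgeR without pairs. Without pairs Aqp4 alone of the marker genes passed in edgeR. Their part in the differences of the pathway genes was not tested.

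In the prefix contrast the counts of the pathway lists stand beside the 12.6% of all genes that fell in CKD627 and the 9.15% that rose. Of the 23 genes for the fate of filtered ligands 14 fell and 1 rose in CKD627, and of the 12 regulators 7 fell and 2 rose, among the fallers Hnf4a (-1.76 on the log2 scale; edgeR adjusted p = 0.000126). Of the 19 early endosome genes 1 fell, and of the 24 clathrin coat genes 4 fell and 2 rose. Recycling had 8 of 27 genes that fell and 2 that rose, and inositol lipid enzymes 2 of 13 that fell and 0 that rose. Exchangers and the proton pump had 5 of 21 that fell and 1 that rose, and relatives of megalin and other receptors 5 of 19 that fell and 1 that rose. Beside these counts, 8 of the 10 genes of megalin and cubilin uptake fell. No difference between these lists was tested. The fit of the Tomato difference between the prefixes called 0 of the 158 pathway genes in edgeR, with 30 at an unadjusted p under 0.05.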

How the data were processed

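The authors deposited raw counts per gene symbol for the 8 libraries. Reads were aligned with subread, per the file headers. The submitters' processing notes name mm10, limma 3.46.0 and edgeR 3.32.1. Per the labels' protocols, a Norgen single-cell kit and a NEBNext Ultra library kit were used. The sources used here do not state the counter, annotation or strand setting.

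From these counts, edgeR 4.0.16 in R 4.3.3 was run with filterByExpr (a minimum count of 10, 15 in total, leaving 14284 genes or 56.6%), TMM factors, 2-sided quasi-likelihood tests and Benjamini-Hochberg adjustment over all genes tested, with a threshold of 0.05. The SE is the log2 difference over the root of F. The main Tomato fit had no pairs. A second fit took the identifier as a block and is printed where it changes a call, since libraries sharing an identifier correlated at 0.464, 0.321, 0.33 and 0.465 after removal of group means, above the limit of 0.1; the other identifier of the same prefix correlated alike (0.425, 0.337, 0.467 and 0.296). Prefixes were compared on counts summed per identifier.

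The 10 genes and all lists were chosen with earlier results of these data known. Named beside the 10 genes are up to 3 called genes per pathway list or, where fewer than 2 passed, the 2 with the smallest p, the most abundant gene and that with the smallest p per marker list, and the nearest profiles; others are said to be picked. Scripts were tested on simulated data. Alternatives were other scalings, filters, covariates, DESeq2 1.42.0, limma-voom (limma 3.58.1) and leaving out libraries or identifiers. Some genes that meet the naming rule were left out of the text.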

Additional observations from a re-analysis of the deposited data

Results flagged for a closer look

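The Tomato-positive minus Tomato-negative difference of 4 of the 10 genes had opposite directions in the 2 prefixes, with every CKD627 pair above 0 and every CKD523 pair below. The same pattern was seen in 7.25% of all genes tested and was not particular to the list. Among the 24 proximal tubule markers, Slc34a1, Slc4a4 and Slc3a1 also had it. Of those 24 markers, 10 were lower and 1 was higher in Tomato-positive in all 4 pairs. The log2 difference in CKD627 minus that in CKD523 was 1.55 for Lrp2, 1.56 for Cubn, 0.783 for Dab2 and 0.385 for Ehd1. They are given as values with no p, since the contrast chose the genes: the call of 2 of them in the fit with pairs is no independent test, and for the other 2 the difference was not called.

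A single library stood far from the other 3 of its group in 2 of the 62 groups of 4 libraries screened. Pik3c2a had such a library among the Tomato-positive ones, with a gap of 0.879 of the range of CPM, and Tfe3 among the Tomato-negative ones, with a gap of 0.866. Chance alone flags about 1 in 20 such groups.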

How the results depend on the processing

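In the Tomato contrast, the number of genes called depended most on the model. It was 85 without pairs, 1089 with the replicate block, 1527 with the prefix as covariate, 2231 in CKD523 alone, 303 in CKD627 alone, 1000 with DESeq2 and 45 with every gene of at least 1 count. Of the 10 genes, 0 were called without or with pairs, 2 with the prefix as covariate, 8 in CKD523 alone and 1 with DESeq2. Pathway genes called higher numbered 1 without pairs, 9 with the block, 11 with the covariate, 12 in CKD523, 2 in CKD627 and 8 with DESeq2; those called lower numbered 0, 5, 7, 14, 2 and 6. Leaving out each library gave 6 to 26 genes and 0 to 0 pathway genes higher. The median log2 difference of the 10 genes was -0.41, -0.10 with the block and 0.11 in CKD627 alone. With pairs, DESeq2 called 2026 genes, 2 of the 10, and 14 pathway genes higher and 11 lower. Leaving out each pair gave 203 to 1319 genes (203 without CKD523_3), 1 to 10 pathway genes higher and 2 to 5 lower. Calls of named genes that pairing changed are given with both p-values in the report, and it changed no other call of a named gene of the pathway. The fit of the Tomato difference between the prefixes called 3 genes, or 25 with the replicate block (an alternative chosen after seeing the data), of which 2 of the 10. In the prefix contrast 3351 genes were called, 1890 in Tomato-positive libraries alone. Between 6 and 9 of the 10 genes were called under every alternative that kept at least 2 libraries or identifiers a side. Shares of all genes were not computed for these alternatives, and nothing is read from that range. The prefix difference of Ocrl reversed to 0.13 with library size scaling (adjusted p = 0.582), and leaving out each identifier gave -0.16 to 0.064 (0.064 without CKD627_1). The cause of these shifts was not tested. With 4 sums the prefix test rests on 2 identifiers a side. With 13 to 20.6 counts per CPM, counting error is small beside the spread between libraries for genes of high level. It is larger for genes of fewer counts, such as Ocrl (410 to 908 counts) and Cdkn2a (4 to 57 counts), where its part was not computed.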
